A study of Mus musculus with 6 samples.

Results

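Levels of 5 miRNAs known from liver (miR-122-5p, miR-192-5p, miR-194-5p, miR-215-5p and miR-802-5p) were examined in mouse hepatoma tumours. They were taken by name, as the 5 members of 1881 mouse miRNAs with probes on an Agilent one-colour array, each with 2 probes printed in about 15 spots. Tumours came from C57 BL/6 mice whose right flank had received 0.1 ml of growing Hepa1-6 cells, a line derived from a mouse hepatoma. The tumours of 3 mice given GLE, an agent whose name the labels do not spell out, at 0.023 g per day for a 10 g mouse, were compared with those of 3 mice of the model group, given 0.2 ml of 0.9% NaCl daily for 28 days. The length of GLE dosing is not stated separately, and both groups carry the same age label of 28 d. Each array held total RNA of 1 whole tumour, so fewer cells of a type and less RNA per cell cannot be told apart.

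A miRNA is cut from a hairpin precursor, whose 2 arms give a 5p and a 3p strand, and it recognises messenger RNAs mainly through its seed, here taken as bases 2 to 8. miR-122-5p is the dominant miRNA of hepatocytes and is known for its part in cholesterol metabolism and for its loss in many hepatocellular carcinomas. miR-192-5p and miR-194-5p are made together in liver, gut and kidney. miR-215-5p is a close relative of miR-192-5p that is known mainly from gut, and miR-802-5p is known in mouse liver for its rise in obesity.

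The mature sequences show which of these miRNAs could be confused with each other on an array. RefSeq entries on GRCm38.p6 were matched for 4 of the 5 members, and capitals mark the seed:
mmu-miR-192-5p: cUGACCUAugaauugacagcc
mmu-miR-215-5p: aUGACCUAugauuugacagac
mmu-miR-194-5p: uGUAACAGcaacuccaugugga
mmu-miR-802-5p: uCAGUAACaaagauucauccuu

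miR-192-5p and miR-215-5p share the seed UGACCUA, and of 1679 mature mouse names in RefSeq only these 2 carry it. With miR-192-5p as the first sequence and positions counted from its 5′ end, the 2 miRNAs differ by C1A, A12U and C20A, at 3 of 21 bases and outside the seed. The brighter miR-192-5p probe pairs with bases 3 to 21 and the brighter miR-215-5p probe with bases 4 to 21, so that A12U and C20A lie under both probes. The seeds of miR-194-5p and miR-802-5p each occur in 1 name.

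Hairpins of miR-192, miR-194 and miR-215 form 2 pairs in the genome. The miR-192-5p sequence is at chr19:6264857-6264877 on the plus strand, and its hairpin Mir192 lies 115 bases from Mir194-2, which holds miR-194-5p at chr19:6264658-6264679; RefSeq has no other gene over this pair. A second copy of miR-194-5p, in Mir194-1, is at chr1:185313325-185313346, and 195 bases separate that hairpin from Mir215, with miR-215-5p at chr1:185313610-185313630, both within the span of the protein-coding gene Iars2. Signal on the miR-194-5p probes cannot be assigned to either copy. The miR-802-5p sequence is at chr16:93369737-93369758, also on the plus strand.

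The other arms of the miR-194 hairpins are separate products:
mmu-miR-194-1-3p: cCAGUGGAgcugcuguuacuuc
mmu-miR-194-2-3p: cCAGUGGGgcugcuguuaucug

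These are shown because only the 3p arms tell the 2 copies apart. From Mir194-1 to Mir194-2 they differ by A8G, within the seed, and by C19U, U20C and C22G.

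All 6 arrays came from 1 slide and 1 scan, with no saturated spot. Control RNAs added at hybridisation gave a geometric mean of 3051, 1431 and 1993 intensity units on GLE arrays 1, 2 and 3. On model arrays 1, 2 and 3 they gave 5048, 2806 and 1958. GLE 2 was thus lowest and model 1 highest, and the part of this in the levels was not tested. GLE arrays lay in the first row of the slide and model arrays in the second, so that row and group cannot be told apart. Detected miRNAs numbered 396, 456 and 432 on GLE arrays 1, 2 and 3, against 458, 387 and 378 on model arrays 1, 2 and 3. The 75th percentile of the processed signal was 203, 364 and 241 intensity units on the GLE arrays, against 313, 231 and 211 on the model arrays. Levels below are processed signal as a percent of this percentile on the same array, for the brighter probe of each miRNA, and they do not compare one miRNA with another. A miRNA counts as detected on an array where a share of over 0.5 of a probe's spots was well above background in the scanner's own flag.

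Of the 5 miRNAs, miR-192-5p was detected in all 6 tumours, miR-194-5p in 5 and miR-122-5p in 2, while miR-215-5p and miR-802-5p were detected in none. Tumour GLE 2, held by far the highest signal of each of the 3 detected miRNAs, and model 1 the next. The remaining 4 tumours were dim or at background. The liver name of the set thus rested on 3 of its 5 miRNAs in these tumours, and miR-122-5p, the most typical of hepatocytes, was not detected in 4 of them. Not detected by this flag does not always mean at background. The brighter miR-122-5p probe read 13.6 units in model 2 and 6.50 in GLE 1, but 0.679 in GLE 3 and 1.18 in model 3. Negative control spots had an SD of 2.25 to 2.39 units on the 6 arrays.

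miR-192-5p stood at 12.4%, 120% and 9.11% in GLE tumours 1, 2 and 3, against 32.1%, 17.6% and 7.73% in model tumours 1, 2 and 3. In GLE tumour 2 all 15 spots were well above background, as they were in GLE 1, model 1 and model 2, and 11 of 15 were in model 3, the dimmest. The 2 groups overlapped: GLE 2 was above every model tumour, and the other two GLE tumours were below model 1 and model 2. Highest over lowest came to 15.5-fold over the 6 tumours.

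miR-194-5p, which has 1 of its 2 gene copies beside Mir192, stood at 6.71%, 51.1% and 5.54% in GLE tumours 1, 2 and 3, against 14.1%, 9.57% and 4.77% in model tumours 1, 2 and 3. It was not detected in model 3, where 0 of 15 spots were well above background, and in GLE 1 and GLE 3 only 8 of 14 and 8 of 15 spots were. The groups overlapped as for miR-192-5p.

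miR-122-5p stood at 3.21%, 40.1% and 0.282% in GLE tumours 1, 2 and 3, against 11.01%, 5.88% and 0.560% in model tumours 1, 2 and 3. It was detected in GLE 2 and in model 1, each with 15 of 15 spots well above background. Model 2, with 6 of 15 such spots, fell short of detection, and GLE 1, GLE 3 and model 3 had none. Its second probe, also detected in those tumours alone, read 18.6% in GLE 2 and 4.77% in model 1.

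The spots of 1 array give the measuring error within that array. For each of the 3 miRNAs the spots of GLE 2 did not overlap those of model 1, and those of model 1 did not overlap those of model 2. Below that, the spots of each tumour overlapped those of the next in order, from model 2 to GLE 1 and on through the 3 lowest. The means of neighbours could still lie apart: miR-192-5p had 12.4% ± 1.76 in GLE 1 and 17.6% ± 1.38 in model 2 (SD of 15 spots each). At the low end it had 9.11% ± 1.62 in GLE 3 and 7.73% ± 1.45 in model 3 (SD of 15 spots each), a gap smaller than the SD of either.

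**Figure D1:**
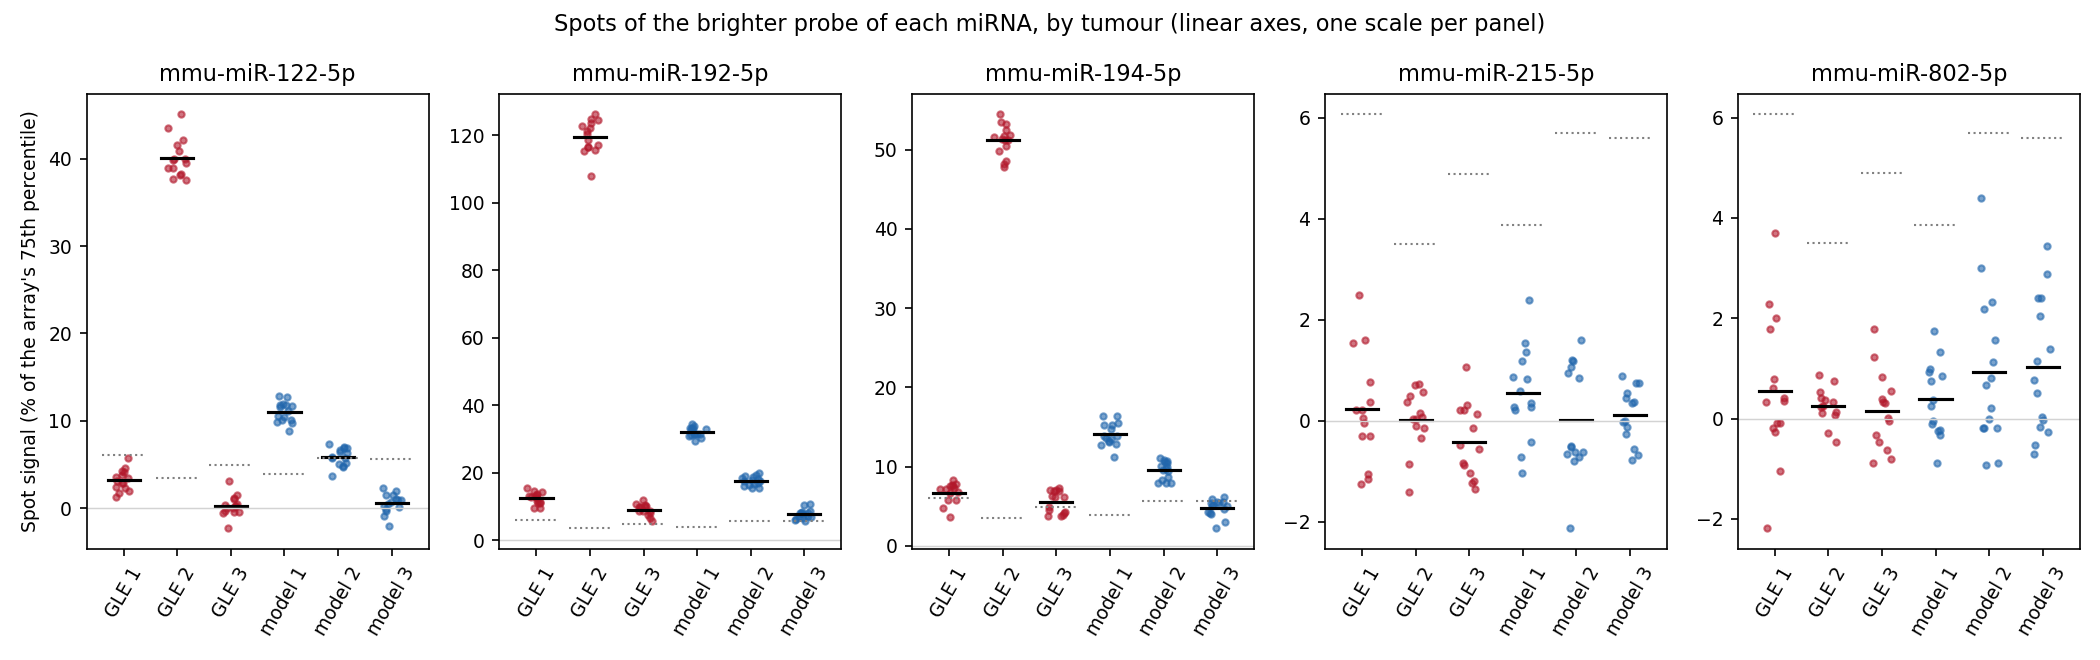
Spot signals of the brighter probe (percent of the array's 75th percentile, linear axis, 1 scale per panel) for the 5 miRNAs, with 3 GLE tumours in red and 3 model tumours in blue. Black bars are means of the spots and grey dotted bars the lowest signal among detected probes of that array; GLE 2 is highest for miR-122-5p, miR-192-5p and miR-194-5p, and all values of miR-215-5p and miR-802-5p lie under the dotted bars.

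miR-215-5p gave 0.222%, 0.0191% and -0.415% in GLE tumours 1, 2 and 3, against 0.547%, 0.0175% and 0.117% in model tumours 1, 2 and 3. miR-802-5p gave 0.557%, 0.251% and 0.158% in the GLE tumours, against 0.384%, 0.927% and 1.02% in the model tumours. Over both probes of both miRNAs, 0 of 348 spots were well above background, and probe means ran from -1.56 to 2.14 intensity units, beside negative control spots whose SD was 2.25 to 2.39 on the 6 arrays. In GLE 2, where the miR-192-5p probe read 435 units, the miR-215-5p probe read 0.0696 units, although the 2 targets share 18 of 21 bases. No order of tumours can be read from these 2 miRNAs, and neither can be said to be absent.

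The opposite arms of the members' hairpins, miR-122-3p, miR-192-3p, miR-194-1-3p, miR-194-2-3p, miR-215-3p and miR-802-3p, were detected on no array. Together they had 0 of 1050 spots well above background and probe means of -1.96 to 5.28 intensity units. These arms therefore did not show from which copy the miR-194-5p signal came.

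In the 2 tumours where all 3 were detected, the 3 miRNAs differed by near-equal folds. Signal in GLE 2 over that in model 1 was 3.72-fold for miR-192-5p (95% interval from the spots 3.61 to 3.84), 3.64-fold for miR-122-5p (3.43 to 3.87) and 3.62-fold for miR-194-5p (3.43 to 3.83). These intervals overlap, and they cover the measuring error of 1 array each, not the spread between mice. Folds of miR-192-5p and miR-194-5p were less alike against model 2. miR-122-5p was not detected in model 2. Its folds, near those of miR-192-5p, were 6.82 for GLE 2 over model 2 (6.21 to 7.49) and 1.87 for model 1 over model 2 (1.69 to 2.08). GLE 2 over model 2 gave 6.79-fold for miR-192-5p (6.49 to 7.10) and 5.35-fold for miR-194-5p (5.02 to 5.69). Model 1 over model 2 gave 1.82-fold for miR-192-5p (1.74 to 1.91) and 1.48-fold for miR-194-5p (1.36 to 1.60). In neither case do the intervals of miR-192-5p and miR-194-5p overlap.

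Across the 6 tumours, levels of miR-192-5p and miR-194-5p had a Pearson r of 0.9997 (exact permutation p = 0.00139, adjusted 0.00278) and a Spearman rho of 1 (exact permutation p = 0.00278, adjusted 0.00834). This was 1 of 3 relations computed, two-sided over 720 pairings and adjusted by Benjamini-Hochberg; those of miR-122-5p are not given, since it was undetected in 4 tumours. Without GLE 2 and model 1, the 2 tumours farthest from the median, r was 0.9957, with miR-194-5p not detected in model 3. The tumours with the highest values, GLE 2 and model 1, also had the brightest arrays and the most detected miRNAs, and the part of this in the relation was not tested.

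In GLE against model, neither miR-192-5p nor miR-194-5p passed the test, and the SD among GLE tumours was larger than either difference. Group means were 47.0% ± 62.8 in GLE and 19.2% ± 12.3 in model tumours for miR-192-5p (SD, n = 3 each), but the medians ran the other way, at 12.4% in GLE and 17.6% in model tumours. For miR-194-5p they were 21.1% ± 26.0 in GLE and 9.48% ± 4.67 in model tumours (SD, n = 3 each), with medians of 6.71% in GLE and 9.57% in model tumours. miR-122-5p, with 14.5% ± 22.2 in GLE and 5.82% ± 5.23 in model tumours (SD, n = 3 each), was not tested, since it was detected in only 1 tumour of each group.

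On the log2 scale, with values under 5.23% set to that floor, miR-192-5p differed by 0.54 ± 1.00 (GLE minus model, SE; 95% interval -1.82 to 2.90; limma adjusted p = 0.951). miR-194-5p differed by 0.48 ± 0.85 (SE; 95% interval -1.52 to 2.48; limma adjusted p = 0.951), with model 3 at the floor. It passed the filter on dim signal, which asks for detection in all tumours of a group, only through the GLE group, where its mean is higher. Of the tested members, 0 of 2 were called, where 0% of the 388 miRNAs tested were called at an adjusted p under 0.05 by limma (6 at an unadjusted p under 0.05). Both miRNAs had overlapping groups, where 6.70% of the 388 had 3 GLE values all above or all below the 3 model values. For miR-192-5p the interval spans 0.284-fold to 7.49-fold, so that an effect of GLE on these miRNAs was neither shown nor bounded closely.

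Tumour GLE 2 decided the sign. Without it, miR-192-5p was at -0.62 ± 0.52 (GLE minus model, log2, SE; 95% interval -1.85 to 0.61; limma adjusted p = 0.515). Likewise miR-194-5p was at -0.57 ± 0.36 (SE; 95% interval -1.41 to 0.27; limma adjusted p = 0.361). Without model 3, the lowest model tumour, the differences fell to 0.068 for miR-192-5p and 0.092 for miR-194-5p.

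**Figure D2:**
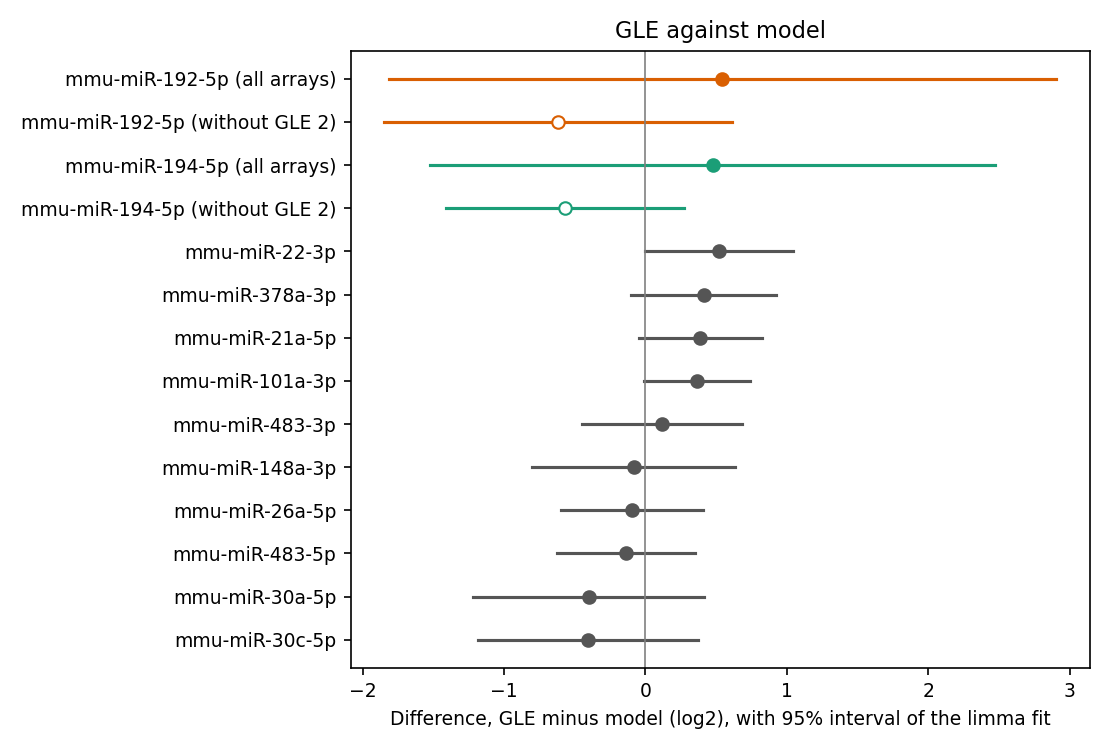
Differences between GLE and model tumours (GLE minus model, log2) with 95% intervals from limma for the 2 tested members, over all arrays (filled) and without GLE 2 (open), above 10 other liver-expressed miRNAs in grey. The members' points change side at 0 without GLE 2, from 0.54 over all arrays to -0.62 for miR-192-5p, and every interval includes 0.

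These 2 miRNAs had the widest spread between tumours of a group among the 388 tested. The ranks do not cover miRNAs left out as not detected in all tumours of either group. One of these, miR-375-3p, ran from -0.541% in GLE 3 to 64.0% in GLE 2. The within-group SD was 1.61 for miR-192-5p (log2, rank 1) and 1.36 for miR-194-5p (rank 2), beside a median of 0.29 over all tested miRNAs. In the GLE group alone the SD was 2.03 for miR-192-5p and 1.78 for miR-194-5p (median of all 0.33), and in the model group 1.03 and 0.72 (median of all 0.17). Among model tumours miR-192-5p again ranked 1, while miR-194-5p ranked 14. Whether the spread differed between the groups was not tested.

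Much of that spread came with GLE 2. Its value exceeded the mean of the other 5 tumours by 3.12 for miR-192-5p and 2.74 for miR-194-5p (log2), the 2 largest such gaps of the 388. The next among the tested miRNAs was 1.61, for miR-200a-3p, an epithelial miRNA. Untested miRNAs could have gaps as large, since the filter on detection left them out. One is miR-375-3p, at 64.0% in GLE 2 and 17.5% in model 2, its next highest tumour. The untested miR-122-5p was also by far the highest in GLE 2. Gaps of untested miRNAs were not computed, so the step down to 1.61 holds for the tested ones only. With GLE 2 left out, miR-192-5p ranked 5 and miR-194-5p ranked 23 of 399 tested miRNAs in within-group SD, at 0.86 and 0.56.

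**Figure D3:**
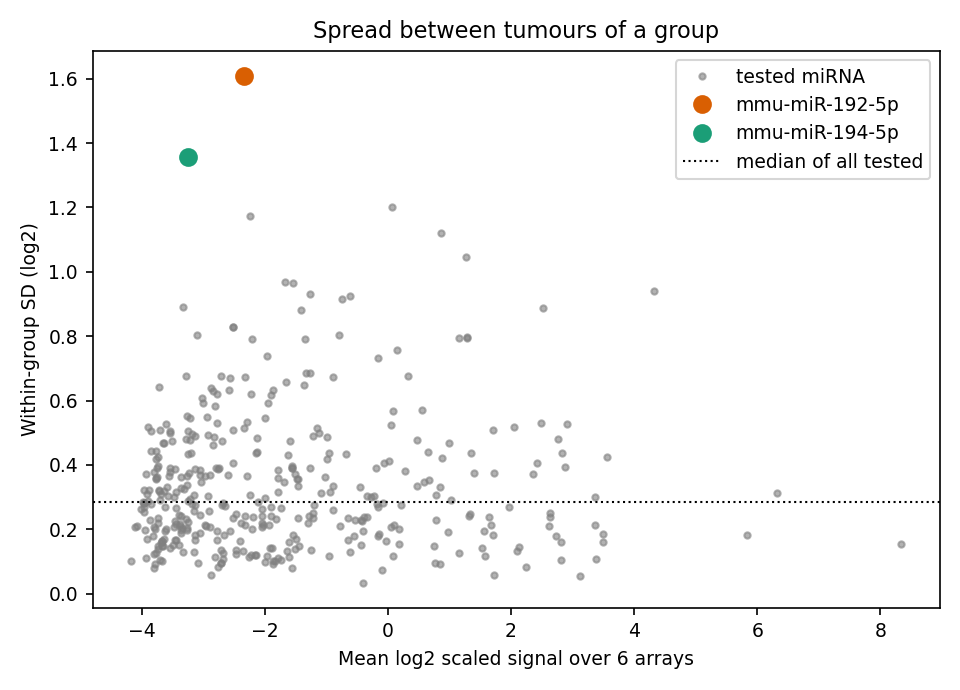
Within-group SD (log2) against mean log2 scaled signal over 6 arrays for the 388 tested miRNAs, with miR-192-5p and miR-194-5p marked and the median of 0.29 dotted. The marked points, at 1.61 and 1.36, lie above all others although many miRNAs have a similar mean signal.

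Outside the 5 members, the miRNAs with the most similar pattern over the 6 tumours had smaller ranges. Among these miR-99a-5p had the highest Pearson r with both, 0.98 with miR-192-5p and 0.97 with miR-194-5p, and miR-26b-5p followed at 0.96 and 0.94. Next came miR-139-5p (0.91), miR-23a-3p (0.90) and miR-200a-5p (0.89) for miR-192-5p, and miR-30b-5p (0.88), miR-8107 (0.88) and miR-200a-5p (0.88) for miR-194-5p. Without GLE 2 and model 1, r with miR-192-5p was 0.99 for miR-99a-5p, 0.97 for miR-26b-5p, 0.91 for miR-139-5p and 0.84 for miR-23a-3p. For miR-200a-5p it fell to 0.49. With miR-194-5p it was 0.99 for miR-99a-5p and 0.96 for miR-26b-5p. It fell to 0.68 for miR-30b-5p, 0.66 for miR-8107 and 0.62 for miR-200a-5p. The 6 log2 values of miR-99a-5p spanned 0.45 and those of miR-26b-5p 0.54, where miR-192-5p spanned 3.95 and miR-194-5p 3.29. These correlations are of log2 values, unlike the r of 0.9997 between miR-192-5p and miR-194-5p, which is of levels in percent. They are descriptions over 6 arrays that share 1 slide and a common scaling.

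Of 8 epithelial markers, 4 (miR-200a-3p, miR-200b-3p, miR-429-3p and miR-375-3p) were also highest in GLE 2. So were miRNAs outside this list, such as miR-99a-5p and miR-26b-5p. The share of all tested miRNAs highest in GLE 2 was not computed, so the count cannot be read as particular to epithelial markers. miR-200a-3p, of the family that maintains the epithelial state, stood at 132%, 473% and 59.2% in GLE tumours 1, 2 and 3, against 348%, 272% and 126% in model tumours 1, 2 and 3. miR-375-3p, known from pancreatic islets and gut epithelium, was detected on 3 arrays and read 2.87%, 64.0% and -0.541% in the GLE tumours, against 16.0%, 17.5% and 2.73% in the model tumours. GLE 2 was highest and GLE 3 lowest for both. miR-203-3p, detected on 4 arrays, and miR-205-5p, detected on 1, were highest in model 1 instead, with 8.58% and 0.579% in GLE 2 against 12.5% and 7.69% in model 1.

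The summed level of the 8 epithelial markers was 696%, 2107% and 296% in GLE tumours 1, 2 and 3, against 1659%, 1248% and 749% in model tumours 1, 2 and 3. Of these 8, miR-200a-3p, miR-200b-3p and miR-429-3p were tested and 0 were called, with differences of -0.59, -0.63 and -0.78 (GLE minus model, log2) and a median of -0.63, beside 0.0078 over all tested miRNAs. miR-200c-3p and miR-141-3p were detected on no array. The part of epithelial RNA in the miR-192-5p and miR-194-5p pattern was not tested.

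Among GLE tumours, immune and mesenchymal markers were lowest in GLE 2 and highest in GLE 3. Summed immune markers (7 of 9 listed were on the array, all detected in all tumours) were 1599%, 826% and 2327% in GLE tumours 1, 2 and 3, against 751%, 681% and 1058% in model tumours 1, 2 and 3. Summed mesenchymal markers (6 of 8 listed, all detected in all tumours) were 476%, 253% and 836% in the GLE tumours, against 272%, 219% and 353% in the model tumours. No immune or mesenchymal marker was called, with 7 of 7 immune and 5 of 6 mesenchymal differences above 0 (GLE minus model). Over all tested miRNAs 198 of 388 were above 0. Markers of a list were read on the same arrays, so they are not independent observations. The part of immune and mesenchymal cells in the members' values was not tested.

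**Figure D4:**
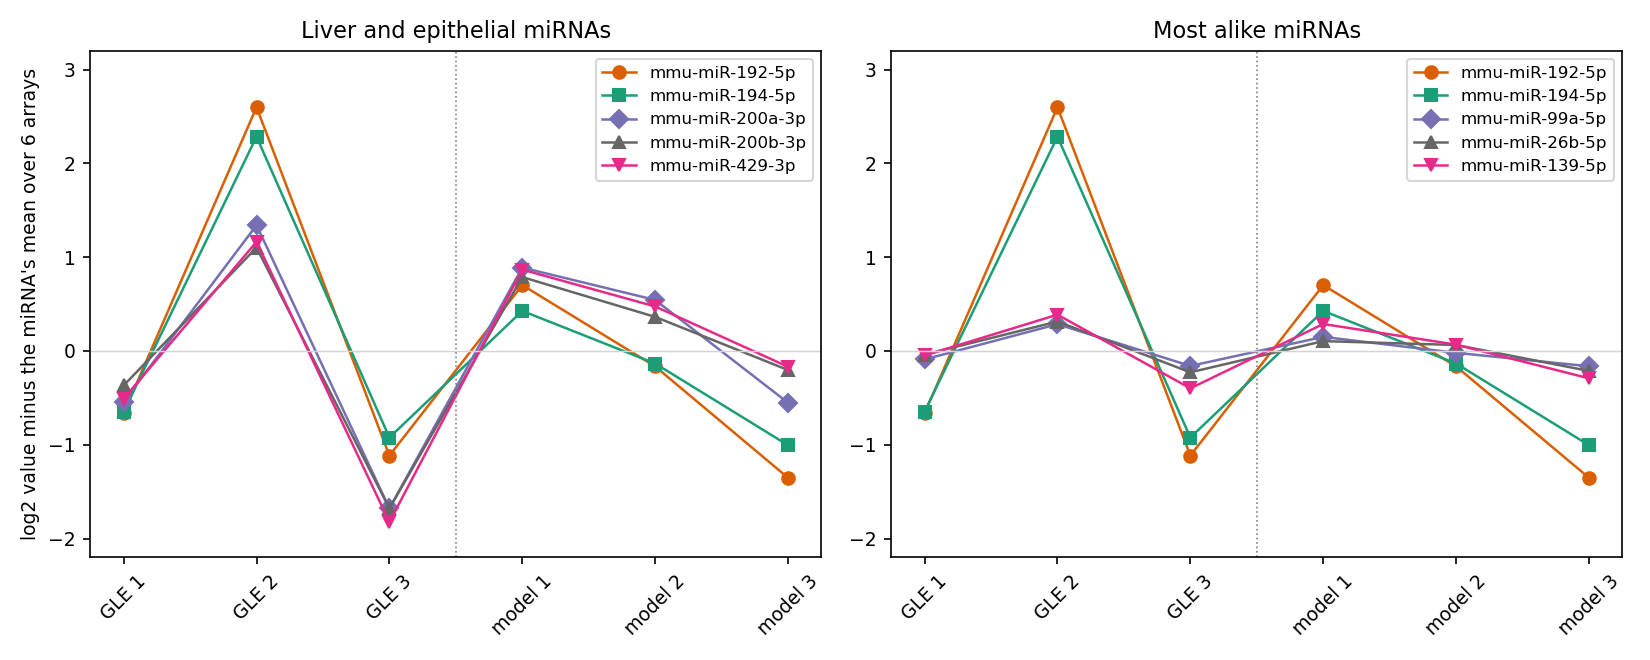
Log2 value of each tumour minus the miRNA's own mean over 6 arrays, with 3 GLE tumours left of 3 model tumours. Left, miR-192-5p and miR-194-5p beside 3 epithelial miRNAs, which also peak in GLE 2 but are lowest in GLE 3; right, the same 2 beside 3 of the most similar miRNAs outside the 5 members, whose lines are much flatter (miR-99a-5p spans 0.45).

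Since miR-192-5p and miR-194-5p ranked 1 and 2 in within-group SD, the other tested miRNAs expressed in liver necessarily had a smaller one. Of 14 listed, 10 were tested and all 10 were detected on every array, with 5 differences above 0, 5 below and 0 called (limma), and a median of 0.016 beside 0.0078 over all tested miRNAs. The lowest was miR-30c-5p at -0.41 ± 0.33 and the highest miR-22-3p at 0.52 ± 0.22 (GLE minus model, log2, SE). miR-148a-3p, abundant in adult hepatocytes, stood at 84.9%, 121.6% and 53.8% in GLE tumours 1, 2 and 3, against 102%, 81.5% and 77.2% in model tumours 1, 2 and 3. GLE 2 was the highest tumour for miR-148a-3p, but by a small margin over model 1. Of the list's extremes, miR-30c-5p was also highest in GLE 2, at 359% with 352% in model 1. miR-22-3p was not, at 787% in GLE 2 against 1321% in GLE 3. Most of the other tested miRNAs of the list also peaked in a tumour other than GLE 2. miR-101b-3p, miR-455-3p and miR-455-5p were detected on no array, and miR-33-5p on 1.

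The authors' deposited table, in log2, had the same 3 tumours highest but another one lowest. In the authors' deposited table miR-192-5p was 3.55, 7.08 and 2.45 in GLE tumours 1, 2 and 3, against 5.04, 4.24 and 2.78 in model tumours 1, 2 and 3. For miR-194-5p the authors' deposited table gave 2.21, 5.66 and 0.88 in the GLE tumours, against 3.72, 2.85 and 2.21 in the model tumours. GLE 3 was thus the lowest tumour for both in the authors' deposited table, where model 3 was lowest in the scaled signals. miR-122-5p was above its column's lowest value, which most miRNAs shared, on 3 arrays of the authors' deposited table, with 5.43 in GLE 2, against 3.52 in model 1 and 2.26 in model 2. miR-215-5p, miR-802-5p and the 6 other arms sat at that lowest value on all 6 arrays of the authors' deposited table. The normalisation behind these values is not stated.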

How the data were processed

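The authors deposited 1 scanner file per tumour, in which intensity values had been made by Agilent Feature Extraction 10.7.1.1, per the submitters' processing notes, and a log2 table of unstated normalisation. Processed signals were averaged per probe over spots without outlier flags (1401 to 1883 of 56430 spots per array flagged) and divided by each array's 75th percentile, taken over 636 probes found in every tumour. Values were floored at -4.26, the log2 of the scaled signal, and probes of a miRNA averaged if detected in every array of 1 group or more. This left 388 of 1881 miRNAs, fitted with limma 3.58.1 in R 4.3.3 (lmFit, eBayes) and adjusted by Benjamini-Hochberg; steps were tested on simulated data. The members and lists were chosen with earlier results of these data known. Named miRNAs were the members, their other arms, the extremes of the other liver list and, for each tested member, the 5 miRNAs outside the members with the highest r; miR-148a-3p and the epithelial markers were named after their values were seen. Sequences are RefSeq's. The number of arrays limits the precision. Alternatives covered scaling, background, detection, floor, probe choice, the replicate block and each array left out.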

Additional observations from a re-analysis of the deposited data

How the results depend on the processing

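No tested miRNA, and so no member, passed the threshold in any of 22 alternatives (0 in each, also with any array left out, lowest 0 and highest 0). The difference of miR-192-5p (GLE minus model, log2) ran from 0.34 to 0.62 over 15 settings (limma adjusted p 0.737 to 0.999), and from -0.62, without GLE replicate 2, to 1.23 with single arrays left out. That of miR-194-5p ran from -0.0103, in the authors' deposited table, to 0.62 over 14 settings (limma adjusted p 0.624 to 0.999), and from -0.57, without GLE replicate 2, to 1.02 with single arrays left out; the cause was not tested. With the replicate block the differences were 0.54 for miR-192-5p and 0.48 for miR-194-5p (limma adjusted p = 0.98 each), and no call changed. Arrays of the same number shared a column of the slide, so the block also follows that column. Tumours of the same number deviated together with r of -0.62, -0.18 and 0.38. These few values cannot show whether the numbers pair mice, which is not stated. Requiring all spots well above background left miR-192-5p detected on 4 arrays, where the rule used gave 6, and miR-194-5p on 3, where it gave 5, and it gave no difference for either member, nor did requiring detection on all arrays for miR-194-5p. With any spot well above background enough, miR-122-5p was detected on 3 arrays, against 2. With no filter, miR-122-5p differed by 0.59 ± 0.81 (SE). A slide or scan block was not run, since all arrays share 1 of each. Signals near the floor, as for miR-194-5p in model 3, limit how far low values can be resolved.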
